A study of Mus musculus with 12 samples.

Results

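The enzymes that build cholesterol and fatty acids, with the regulators that control their transcription, were followed as a set of 36 genes in mouse oesophageal epithelium. The genes were taken by symbol from the count files, and all 36 were found among the 23337 genes there and passed the filter on low counts that kept 14134 genes. They comprised 4 regulators, 17 enzymes of sterol synthesis, 1 sterol carrier, 12 enzymes that make, desaturate or elongate fatty acids, and 2 genes that act on finished fatty acids or their derivatives. Polyadenylated RNA was sequenced from epithelium peeled away from the stroma of C57BL/6 mice at 6 weeks of age, in 12 libraries of 4 genotype groups with 3 libraries each.

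Control mice were ROSA26-StopFL-Ikk2ca+/L; Stat3L/L without Cre, so they carried both floxed loci without the recombinase. The active IKKβ group was ED/L2-Cre+; ROSA26-StopFL-Ikk2ca+/L, which expresses a constitutively active IKKβ, the kinase that switches on NF-κB. The Stat3 loss group was ED/L2-Cre+; Stat3L/L, and the combined group had ED/L2-Cre+ with ROSA26-StopFL-Ikk2ca+/L and Stat3L/L together. ED/L2 is a promoter of Epstein-Barr virus, used here to drive Cre in oesophageal epithelial cells. Since Control has no Cre, each comparison with Control also compares Cre with no Cre. The labels of the active IKKβ group give no floxed Stat3, unlike those of Control. Nothing in them states whether replicate libraries are from different mice, so the p-values measure the spread between libraries, which may be technical.

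Cells make cholesterol from acetyl-CoA through mevalonate, isoprenoid units and squalene, and they make fatty acids from the same acetyl-CoA through malonyl-CoA. SREBP-2, encoded by Srebf2, and SREBP-1, encoded by Srebf1, are membrane-bound transcription factors that drive these enzymes. SCAP escorts them out of the endoplasmic reticulum when sterols are scarce, and INSIG1 holds them back when sterols are plentiful. In stratified squamous epithelium, keratinocytes that leave the basal layer make sterols, ceramides and very long fatty acids for the lipid of the upper layers, and in the oesophagus these suprabasal cells express the keratin pair Krt4 and Krt13.

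Promoter sequence was available for 29 of the 36 genes as RefSeq windows of 250 bases upstream of a transcription start in GRCm38.p6. No entry was found for Fdps, Fdft1, Sqle, Stard4, Scd1, Scd2 and Fads1. The 5 windows printed here serve as examples of the motif content, from an early sterol enzyme that holds the sterol regulatory element to a phosphatidate phosphatase that holds none of the motifs searched. They read 5′ to 3′ on the strand of the gene, and capitals mark the sterol regulatory element TCACNCCAC and the CCAAT box, each on either strand, so that CCAAT also appears as ATTGG.
Hmgcs1, chr13:119690101-119690350, plus strand: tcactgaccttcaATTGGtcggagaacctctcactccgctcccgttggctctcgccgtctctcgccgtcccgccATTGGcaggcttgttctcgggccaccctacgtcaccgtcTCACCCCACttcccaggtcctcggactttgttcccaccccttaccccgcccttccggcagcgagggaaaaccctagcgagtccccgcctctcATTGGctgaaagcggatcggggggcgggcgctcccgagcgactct
Mvk, chr5:114444019-114444268, plus strand: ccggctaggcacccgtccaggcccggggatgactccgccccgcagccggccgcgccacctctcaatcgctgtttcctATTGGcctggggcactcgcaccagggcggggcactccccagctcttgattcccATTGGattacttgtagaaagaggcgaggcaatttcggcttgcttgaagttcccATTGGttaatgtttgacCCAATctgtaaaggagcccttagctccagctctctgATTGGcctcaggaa
Fasn, chr11:120824548-120824797, minus strand: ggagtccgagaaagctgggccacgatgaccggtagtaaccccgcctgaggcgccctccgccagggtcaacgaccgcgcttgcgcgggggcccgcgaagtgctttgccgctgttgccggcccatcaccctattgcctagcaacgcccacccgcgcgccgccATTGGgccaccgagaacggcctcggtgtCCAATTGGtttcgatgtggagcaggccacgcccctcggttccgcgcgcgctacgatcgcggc
Acsl3, chr1:78657575-78657824, plus strand: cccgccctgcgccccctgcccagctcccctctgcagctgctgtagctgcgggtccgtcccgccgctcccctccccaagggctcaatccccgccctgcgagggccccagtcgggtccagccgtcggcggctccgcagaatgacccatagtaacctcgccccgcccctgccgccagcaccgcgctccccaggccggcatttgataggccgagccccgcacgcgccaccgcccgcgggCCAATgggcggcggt
Lpin1, chr12:16610967-16611216, minus strand: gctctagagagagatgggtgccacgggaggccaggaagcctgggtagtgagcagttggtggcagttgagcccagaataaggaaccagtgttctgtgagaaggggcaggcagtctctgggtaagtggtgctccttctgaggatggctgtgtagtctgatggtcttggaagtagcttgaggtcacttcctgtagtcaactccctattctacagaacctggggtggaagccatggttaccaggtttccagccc

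The CCAAT box, the recognition sequence of NF-Y, was present in the windows of 21 of the 29 genes (72.4%), against 37.5% of all 27025 genes with a window. Mvk had 5 copies, Hmgcs1 3, Fasn 3 with 2 of them overlapping in CCAATTGG, Acsl3 1 and Lpin1 0. The GC box GGGCGG, the recognition sequence of SP1, was present in 22 of 29 (75.9%), against 35.4% of all genes. The E-box CACGTG was present in 6 of 29 (20.7%), against 6.86% of all genes. The sterol regulatory element in this spelling was present in Hmgcs1 alone among the 29 (3.45%), against 1.22% of all genes. All motifs were searched on both strands, none of them contains another, and a match describes the letters of the window and not a bound site. The 27025 genes include genes outside the 14134 tested here, whereas all 29 were tested, so these shares compare unlike sets.

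All 36 genes were detected in every library, at very different levels. Per kilobase of exon, the highest mean over the 12 libraries was that of Elovl1, an elongase of saturated very long fatty acids, at 167 CPM per kb (CPM, counts scaled to a common library total). Elovl4, the elongase of ultra-long fatty acids found in barrier ceramides, followed with 86.2 CPM per kb, then Hmgcs1 with 74.1 CPM per kb, Ebp with 52.8 CPM per kb and Fdps with 49.6 CPM per kb. The lowest levels were those of Idi1 with 0.435 CPM per kb, Acacb with 0.445 CPM per kb and Lpin1 with 1.06 CPM per kb. Idi1 rested on 9 to 74 counts a library, the fewest of the set. Annotated exons of 7 of the genes overlap exons of another gene in the files, namely Srebf1 with Rai1, Fdft1 with Ctsb, Lss with 4930483K19Rik, Cyp51 with Akap9, Scd2 with Mir5114, Elovl1 with Cdc20 and Acsl3 with Utp14b. The strand setting of the counting is not given in the sources used here.

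Total counts ran from 14816468 to 30188363 a library. The counts assigned to Krt4 and Krt13 made up 5.22%, 6.22% and 13.9% of the total in Control, 5.06%, 13.8% and 12.8% in active IKKβ, 6.01%, 6.62% and 10.4% in Stat3 loss and 11.6%, 4.05% and 13.4% in combined. Every genotype group therefore held libraries from both a lower range, 4.05% to 6.62% in 6 libraries, and an upper range, 10.4% to 13.9% in the other 6. The lower range held 2 Control, 1 active IKKβ, 2 Stat3 loss and 1 combined library. The summed level of 10 suprabasal markers, which include Krt4 and Krt13, ran from 42506 to 202343 CPM, that of 9 basal markers from 17830 to 32658 CPM, and both lists were well above 0 in each library. Stat3 itself was at 139 to 154 CPM in Stat3 loss, 157 to 179 CPM in Control, 154 to 194 CPM in combined and 158 to 239 CPM in active IKKβ, and since a gene-level count includes exons outside a deletion, it is a weak check of the floxed allele. Ikbkb was at 83.4 to 97.7 CPM in the 6 libraries with the active kinase and at 59.7 to 82.6 CPM in the other 6. Markers of other tissue were uneven among libraries. Active IKKβ replicate 1 had 1709 CPM over 10 gastric markers (Gkn2 was at 0 in all libraries) and 790 CPM over 10 skeletal muscle markers. Stat3 loss replicate 3 had 1654 CPM of the skeletal muscle markers and 113 CPM of the gastric ones. Control replicate 2 had 198 CPM over 10 adipocyte markers, and results are also given without these 3. Other libraries, which were kept, were high in other lists. Active IKKβ replicate 3 had 4243 CPM over 8 smooth muscle markers (928 to 2570 CPM elsewhere) and 209 CPM over 8 endothelial ones. Stat3 loss replicate 2 and active IKKβ replicate 2 had 786 and 595 CPM of the skeletal muscle markers. The sum of 8 fibroblast markers ran from 600 to 2557 CPM, so leaving out 3 libraries did not remove all other tissue.

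Across the 12 libraries, most genes of sterol and fatty acid synthesis were higher where the Krt4 plus Krt13 share was higher. In a fit with genotype group in the model, 29 of the 36 genes rose with the share and 2 fell (edgeR quasi-likelihood test, Benjamini-Hochberg adjustment over 14134 genes, called at an adjusted p below 0.05). Of all genes tested, 18.5% rose, 16.2% fell and 34.8% were called in either direction. The median slope of the 36 genes was 0.68 on the log2 scale per doubling of the share, against -0.03 over all genes. The share is measured in the same libraries and is not a label, so this is a relation between measurements and not a comparison of treatments, and in bulk tissue a larger portion of suprabasal cells and more RNA of these genes per cell cannot be told apart. With library totals in place of trimmed-mean (TMM) scaling, the median over all genes moved to -0.26, and 26 genes rose and 5 fell. Without the 3 libraries rich in markers of other tissue, 26 rose and 1 fell. The shares of 18.5% and 16.2% over all genes belong to the fit with TMM scaling and all 12 libraries. Those of the 2 alternatives are not reported here. Of the marker lists, the 8 suprabasal markers other than Krt4 and Krt13, which make up the share, all rose, while 8 of 9 basal markers fell and the other, Itga6, rose (0.31 ± 0.11, adjusted p = 0.0484). None of 8 adipocyte, 10 Schwann cell and nerve, 10 skeletal muscle, 2 gastric, 8 fibroblast, 8 endothelial and 7 leukocyte markers tested was called in either direction, and 1 of 8 smooth muscle markers, Myocd, rose (1.08 ± 0.36, adjusted p = 0.0376). Among 18 genes of DNA replication, 5 fell.

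**Figure D1:**
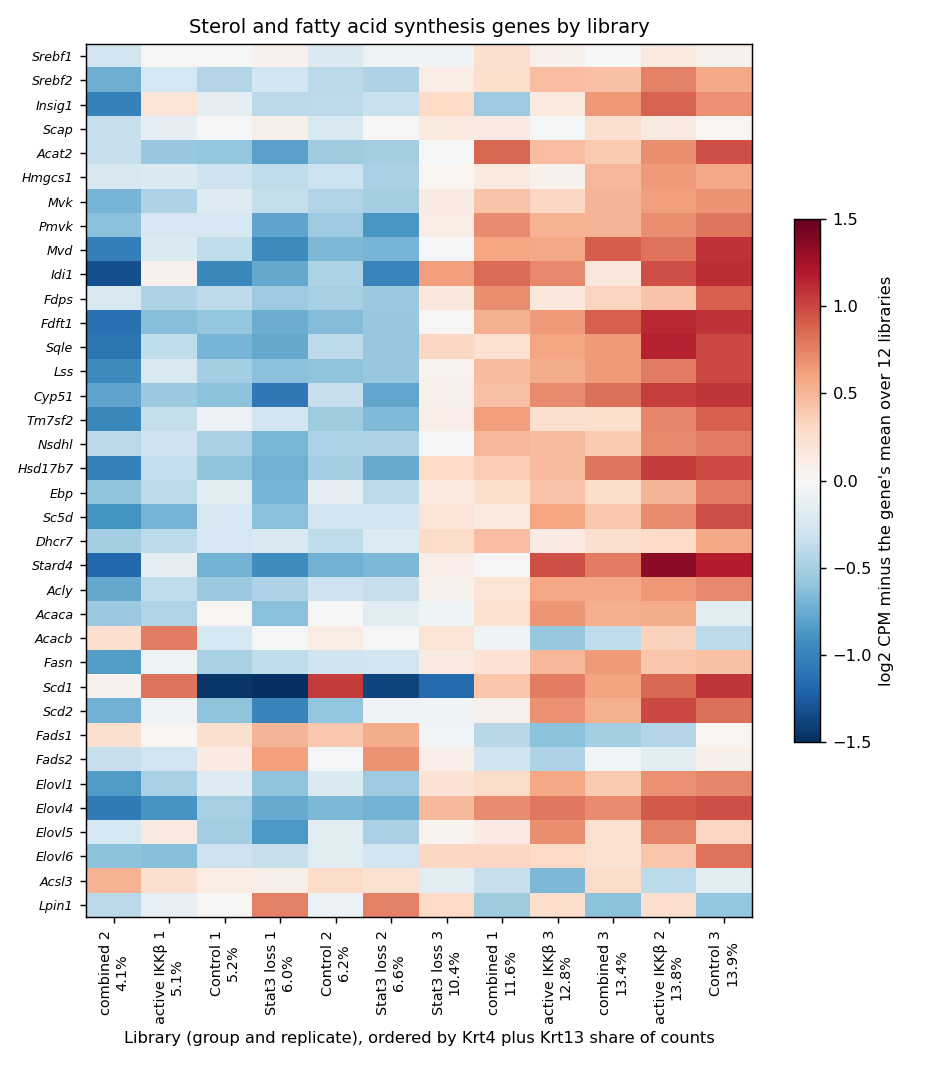
Heat map of the 36 genes (vertical axis) in the 12 libraries (horizontal axis, ordered by the percent of counts in Krt4 and Krt13), coloured by log2 CPM minus the mean of the gene over the 12 libraries. Most genes change from blue to red between the library at 6.62% and the library at 10.4%, and in 25 of the 36 every library above 10% is higher than every other. Srebf1, Insig1, Scap, Acaca, Acacb, Scd1, Fads1, Fads2, Elovl5, Acsl3 and Lpin1 do not have that order.

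The mean log2 CPM of the 17 sterol enzymes was 5.68, 5.64 and 6.99 in Control, 5.72, 6.86 and 6.55 in active IKKβ, 5.45, 5.52 and 6.24 in Stat3 loss and 6.59, 5.35 and 6.61 in combined. The same mean for the 12 fatty acid enzymes was 6.11, 6.41 and 6.94 in Control, 6.35, 6.98 and 6.81 in active IKKβ, 6.02, 6.23 and 6.50 in Stat3 loss and 6.63, 6.03 and 6.78 in combined. The 2 groups of enzymes were high in the same libraries, and within each genotype the library or libraries with a share above 10% were the high ones. The 4 genotype groups overlapped in both means.

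**Figure D2:**
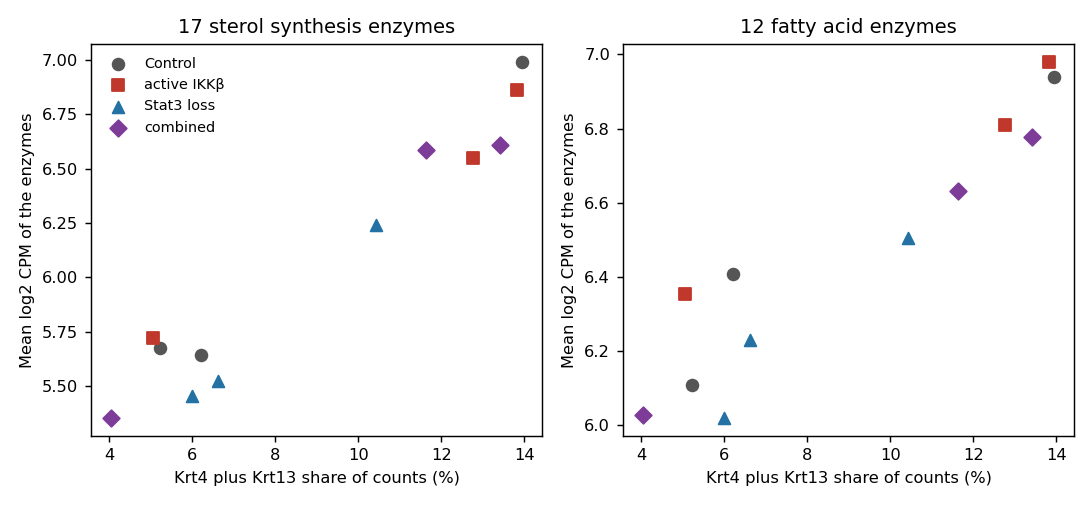
Mean log2 CPM of the 17 sterol synthesis enzymes (left) and the 12 fatty acid enzymes (right) against the percent of counts in Krt4 and Krt13, with 1 point a library and the symbol giving the genotype group. The 6 libraries between 10.4% and 13.9% lie above the 6 between 4.05% and 6.62% in both panels, in each genotype group.

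Of the regulators, Srebf2, Insig1 and Scap rose with the share and Srebf1 was not called. Positions here and below are those of mm10. Srebf2 (chr15:82147181-82205379, plus strand), the main activator of sterol genes, was at 177, 181 and 357 CPM in Control, 199.8, 407 and 330.1 CPM in active IKKβ, 197, 174 and 260.0 CPM in Stat3 loss and 288, 145 and 327 CPM in combined. Its 6 libraries with shares above 10% were all above the other 6, an order that 25 of the 36 genes had (8.84% of all genes), and its slope was 0.68 ± 0.05 (adjusted p = 1.02e-05). Srebf1 (chr11:60199089-60222581, minus strand), the activator of fatty acid genes, was at 152, 132 and 159 CPM in Control, 154, 169 and 161 CPM in active IKKβ, 159.9, 145 and 147 CPM in Stat3 loss and 181, 126 and 153 CPM in combined. Its level varied little, from 126 to 181 CPM over all libraries, and its slope was 0.13 ± 0.06 (adjusted p = 0.131). Insig1 (chr5:28071363-28078662, plus strand), which retains the SCAP complex and is itself a target of SREBP, was at 17.5, 14.7 and 31.02 CPM in Control, 22.04, 35.6 and 21.3 CPM in active IKKβ, 14.6, 15.3 and 23.8 CPM in Stat3 loss and 13.3, 9.58 and 30.4 CPM in combined. The Insig1 library at 13.3 CPM, combined replicate 1, was low in spite of its share of 11.6%, and the slope was 0.61 ± 0.16 (adjusted p = 0.0131). Scap (chr9:110333288-110384950, plus strand), the escort protein, was at 212, 183 and 219.5 CPM in Control, 195, 236 and 211 CPM in active IKKβ, 229, 218 and 238 CPM in Stat3 loss and 235, 169.8 and 254 CPM in combined, with a slope of 0.20 ± 0.06 (adjusted p = 0.0196) that turned to -0.036 with library totals. Insig1 lost its call without Control replicate 3 (slope 0.58, adjusted p = 0.0661) and without combined replicate 2 (0.56, adjusted p = 0.0735). Scap lost it without combined replicate 2 (0.12, adjusted p = 0.169) and without combined replicate 3 (0.17, adjusted p = 0.0589), all in the same edgeR test. With library totals the slope of Insig1 was 0.38 (adjusted p = 0.0583), with upper quartile factors that of Scap was 0.13 (adjusted p = 0.0891), and neither was called without the 3 libraries rich in other tissue (adjusted p = 0.0512 for Insig1 and 0.0718 for Scap).

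All 7 enzymes of the early sterol pathway, from acetyl-CoA to farnesyl diphosphate, rose with the share. Hmgcs1 (chr13:119690379-119708260, plus strand), whose promoter window is printed above with its sterol regulatory element, makes HMG-CoA and was at 264, 262 and 491 CPM in Control, 284, 509.7 and 345 CPM in active IKKβ, 253, 234 and 335 CPM in Stat3 loss and 365, 277 and 464 CPM in combined. The lowest of the 6 libraries with shares above 10% was at 335 CPM and the highest of the other 6 at 284 CPM, and the slope was 0.48 ± 0.08 (adjusted p = 0.00109). Acat2 (chr17:12942890-12960747, minus strand), the cytosolic thiolase that makes acetoacetyl-CoA, was at 26.7, 27.5 and 77.7 CPM in Control, 26.8, 64.4 and 54.6 CPM in active IKKβ, 22.6, 27.6 and 39.1 CPM in Stat3 loss and 71.9, 31.3 and 51.97 CPM in combined. Mvk (chr5:114444269-114460591, plus strand), mevalonate kinase, with 5 CCAAT boxes in its window, was at 79.5, 66.4 and 146 CPM in Control, 65.8, 141 and 113 CPM in active IKKβ, 71.3, 63.6 and 99.5 CPM in Stat3 loss and 123, 56.2 and 129.7 CPM in combined. Both were low in every library with a share under 10% and had slopes of 0.82 ± 0.10 (adjusted p = 0.00019) and 0.71 ± 0.07 (adjusted p = 2.49e-05). Pmvk (chr3:89454541-89469013, plus strand), phosphomevalonate kinase, was at 48.9, 39.98 and 102 CPM in Control, 49.1, 94.5 and 83.97 CPM in active IKKβ, 33.7, 31.8 and 63.3 CPM in Stat3 loss and 95.5, 37.7 and 83.5 CPM in combined. Mvd (chr8:122433601-122443422, minus strand), the decarboxylase that yields isopentenyl diphosphate, was at 40.1, 32.8 and 111 CPM in Control, 45.2, 91.9 and 78.5 CPM in active IKKβ, 27.04, 32.2 and 51.8 CPM in Stat3 loss and 79.2, 25.7 and 98.3 CPM in combined. Their slopes were 0.78 ± 0.09 (adjusted p = 0.000111) for Pmvk and 0.99 ± 0.10 (adjusted p = 3.86e-05) for Mvd, the steeper of the pair. Fdps (chr3:89093588-89101959, minus strand), which makes farnesyl diphosphate, was at 150.2, 139 and 366 CPM in Control, 143, 264 and 220.0 CPM in active IKKβ, 135, 133 and 219 CPM in Stat3 loss and 319.6, 168 and 247 CPM in combined, with a slope of 0.65 ± 0.10 (adjusted p = 0.000839). Idi1 (chr13:8885501-8892451, plus strand), the isomerase of isopentenyl diphosphate, was at 0.671, 0.941 and 2.82 CPM in Control, 1.37, 2.56 and 2.15 CPM in active IKKβ, 0.766, 0.659 and 2.02 CPM in Stat3 loss and 2.35, 0.523 and 1.47 CPM in combined. The slope of Idi1 was steep but had the largest error of the sterol enzymes, 1.01 ± 0.23 (adjusted p = 0.00397).

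All 10 enzymes that make squalene and turn it into cholesterol rose as well, with a median slope of 0.88. Fdft1 (chr14:63145150-63179578, minus strand), squalene synthase, was at 76.7, 72.8 and 243 CPM in Control, 73.5, 250.1 and 177 CPM in active IKKβ, 68.1, 77.1 and 115 CPM in Stat3 loss and 165, 52.7 and 212 CPM in combined. The lowest of the 6 libraries with shares above 10% was at 115 CPM and the highest of the other 6 at 77.1 CPM, and the slope of 1.15 ± 0.07 (adjusted p = 2.54e-06) was the steepest of the sterol enzymes. Sqle (chr15:59315077-59331192, plus strand), squalene epoxidase, was at 85.05, 105 and 272 CPM in Control, 106, 305 and 208 CPM in active IKKβ, 81.02, 92.5 and 170.2 CPM in Stat3 loss and 162, 64.1 and 214 CPM in combined. Cyp51 (chr5:4081145-4104746, minus strand), lanosterol demethylase, was at 119.8, 144 and 385 CPM in Control, 125, 377 and 299 CPM in active IKKβ, 87.2, 107 and 193 CPM in Stat3 loss and 248, 106 and 326 CPM in combined. Both changed about as much as the share itself, with slopes of 1.04 ± 0.07 (adjusted p = 4.09e-06) for Sqle and 1.05 ± 0.07 (adjusted p = 2.8e-06) for Cyp51. Lss (chr10:76531588-76557138, plus strand), lanosterol synthase, was at 60.9, 57.2 and 173 CPM in Control, 73.9, 149 and 128 CPM in active IKKβ, 56.1, 58.3 and 89.6 CPM in Stat3 loss and 120.2, 44.8 and 135 CPM in combined. Hsd17b7 (chr1:169949535-169969241, minus strand), a sterol ketone reductase, was at 25.3, 26.97 and 75.3 CPM in Control, 29.7, 79.4 and 53.1 CPM in active IKKβ, 23.2, 22.6 and 47.3 CPM in Stat3 loss and 49.9, 18.99 and 66.8 CPM in combined. The slopes of this pair were 0.90 ± 0.08 (adjusted p = 1.44e-05) and 1.03 ± 0.09 (adjusted p = 1.33e-05), and in neither did the libraries above and below a share of 10% overlap.

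The other enzymes of the late pathway had shallower slopes. Sc5d (chr9:42251595-42264256, minus strand), sterol desaturase, was at 57.1, 55.9 and 133 CPM in Control, 41.8, 111 and 102 CPM in active IKKβ, 43.98, 55.8 and 77.8 CPM in Stat3 loss and 74.7, 36.4 and 89.9 CPM in combined, with a slope of 0.86 ± 0.06 (adjusted p = 3.44e-06). Tm7sf2 (chr19:6062821-6068373, minus strand), a sterol reductase, was at 28.6, 21.1 and 56.6 CPM in Control, 23.8, 50.5 and 36.1 CPM in active IKKβ, 25.1, 19.3 and 32.7 CPM in Stat3 loss and 47.01, 15.6 and 36.6 CPM in combined, with a slope of 0.77 ± 0.12 (adjusted p = 0.000799). Nsdhl (chrX:72918557-72958514, plus strand), a dehydrogenase of sterol demethylation on the X chromosome, was at 42.4, 42.6 and 102 CPM in Control, 47.9, 97.7 and 82.9 CPM in active IKKβ, 37.1, 43.01 and 58.1 CPM in Stat3 loss and 84.1, 45.1 and 78.1 CPM in combined. The slope of Nsdhl was 0.69 ± 0.07 (adjusted p = 5.79e-05), close to the median of the whole set. Ebp (chrX:8185329-8193512, minus strand), a sterol isomerase and the other X-linked gene here, was at 104, 105 and 199 CPM in Control, 88.3, 165 and 156 CPM in active IKKβ, 71.9, 88.6 and 129 CPM in Stat3 loss and 139, 76.3 and 140.3 CPM in combined, with a slope of 0.63 ± 0.06 (adjusted p = 1.78e-05). Dhcr7 (chr7:143823145-143848410, plus strand), the reductase of the last step, was at 98.2, 89.5 and 173 CPM in Control, 88.7, 144 and 127 CPM in active IKKβ, 99.6, 102 and 143 CPM in Stat3 loss and 161, 81.9 and 138 CPM in combined. Its slope of 0.54 ± 0.06 (adjusted p = 0.000111) was the shallowest of the late enzymes. Stard4, a soluble carrier that moves cholesterol between membranes, was at 11.5, 11.4 and 42.6 CPM in Control, 17.1, 47.7 and 36.97 CPM in active IKKβ, 9.87, 11.9 and 20.2 CPM in Stat3 loss and 18.9, 8.36 and 32.03 CPM in combined. The lowest of the 6 libraries with shares above 10% was at 18.9 CPM and the highest of the other 6 at 17.1 CPM, and the slope was 1.11 ± 0.10 (adjusted p = 2.41e-05).

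In the core of fatty acid synthesis, 3 of 4 genes rose with the share. Acly (chr11:100476353-100528000, minus strand), which cleaves citrate into the acetyl-CoA used by both pathways, was at 137, 162 and 331 CPM in Control, 155, 317 and 301 CPM in active IKKβ, 147, 158 and 210.1 CPM in Stat3 loss and 232, 119 and 302 CPM in combined, with a slope of 0.76 ± 0.05 (adjusted p = 2.8e-06). Fasn (chr11:120805846-120824547, minus strand), fatty acid synthase, was at 247, 280.3 and 469 CPM in Control, 327, 461 and 487 CPM in active IKKβ, 266, 282 and 379.9 CPM in Stat3 loss and 401, 192 and 538 CPM in combined, with a slope of 0.63 ± 0.07 (adjusted p = 7.74e-05). Acaca (chr11:84129672-84401651, plus strand), the cytosolic acetyl-CoA carboxylase, was at 42.4, 41.6 and 37.5 CPM in Control, 30.6, 61.3 and 66.2 CPM in active IKKβ, 27.04, 37.3 and 39.8 CPM in Stat3 loss and 48.8, 28.5 and 61.1 CPM in combined. In Acaca, Control replicate 3 was at 37.5 CPM in spite of the largest share, and the slope was 0.46 ± 0.12 (adjusted p = 0.0192). Acaca lost its call without active IKKβ replicate 1 (slope 0.33, adjusted p = 0.102) and without combined replicate 2 (0.37, adjusted p = 0.134), with library totals (0.22, adjusted p = 0.164) and without the 3 libraries rich in other tissue (0.34, adjusted p = 0.193). Acacb (chr5:114146535-114250761, plus strand), the carboxylase of the mitochondrial surface that restrains fatty acid oxidation, was at 2.79 to 7.09 CPM, with a slope of -0.30 ± 0.16 (adjusted p = 0.167) and no call.

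The 4 desaturases divided. Scd2 (chr19:44293674-44306864, plus strand), a stearoyl-CoA desaturase, was at 152, 154 and 409.9 CPM in Control, 219, 457 and 371 CPM in active IKKβ, 115, 222 and 222 CPM in Stat3 loss and 240.1, 139 and 333 CPM in combined, and rose with a slope of 0.77 ± 0.12 (adjusted p = 0.000872). Its neighbour and paralogue Scd1 had a slope of 0.35 ± 0.27 (adjusted p = 0.353) and was not called. Fads1 (chr19:10182888-10196877, plus strand), a desaturase of polyunsaturated fatty acids, fell with the share. It was at 76.6, 86.2 and 66.6 CPM in Control, 66.5, 48.1 and 42.5 CPM in active IKKβ, 92.7, 96.03 and 63.1 CPM in Stat3 loss and 48.6, 77.01 and 45.7 CPM in combined, and its slope was -0.39 ± 0.07 (adjusted p = 0.00102). Fads2, which lies next to Fads1 on chromosome 19 and acts in the same chains, had a slope of -0.005 ± 0.09 (adjusted p = 0.973). Levels of Scd1 and Fads2 by library are given with the genotypes.

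All 4 elongases rose. Elovl4 (chr9:83778692-83806277, minus strand) was at 161, 142 and 445 CPM in Control, 122, 428 and 392 CPM in active IKKβ, 134, 139 and 317 CPM in Stat3 loss and 371, 108 and 371 CPM in combined. The lowest of the 6 libraries with shares above 10% was at 317 CPM and the highest of the other 6 at 161 CPM, and its slope of 1.19 ± 0.08 (adjusted p = 3.48e-06) was the steepest of the 36 genes. Elovl1 (chr4:118428093-118432953, plus strand) was at 371, 366 and 709.5 CPM in Control, 304, 684 and 636 CPM in active IKKβ, 281, 292 and 493 CPM in Stat3 loss and 519, 236 and 557 CPM in combined, with a slope of 0.77 ± 0.05 (adjusted p = 3.13e-06). Elovl6 (chr3:129532355-129638495, plus strand), which extends palmitate to stearate, was at 143, 156 and 311 CPM in Control, 113, 236 and 218 CPM in active IKKβ, 139, 145 and 219 CPM in Stat3 loss and 220.2, 116 and 207 CPM in combined, with a slope of 0.68 ± 0.06 (adjusted p = 1.18e-05). Elovl5 (chr9:77917364-77984519, plus strand), which extends polyunsaturated chains, was at 57.03, 72.8 and 102 CPM in Control, 89.6, 137 and 133 CPM in active IKKβ, 45.1, 58.3 and 84.98 CPM in Stat3 loss and 89.01, 68.1 and 95.4 CPM in combined. The slope of Elovl5, 0.44 ± 0.08 (adjusted p = 0.00129), was the shallowest of the 4.

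Neither gene that acts on finished fatty acids rose. Acsl3 (chr1:78657825-78707743, plus strand), which activates long fatty acids as CoA esters, fell with a slope of -0.35 ± 0.10 (adjusted p = 0.0153). It was at 41.2, 46.4 and 34.03 CPM in Control, 44.7, 29.1 and 23.7 CPM in active IKKβ, 40.2, 44.6 and 33.8 CPM in Stat3 loss and 29.8, 54.4 and 46.2 CPM in combined. That call was lost without active IKKβ replicate 1 (slope -0.28, adjusted p = 0.0915) and without combined replicate 2 (-0.38, adjusted p = 0.0541), and without the 3 libraries rich in other tissue the slope was -0.23 (adjusted p = 0.239). Lpin1, a phosphatidate phosphatase on the way to triglyceride, had a slope of -0.12 ± 0.11 (adjusted p = 0.458). Among the 24 genes with a promoter window that rose with the share, 18 had a CCAAT box, and among the 5 others 3 had one.

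**Figure D3:**
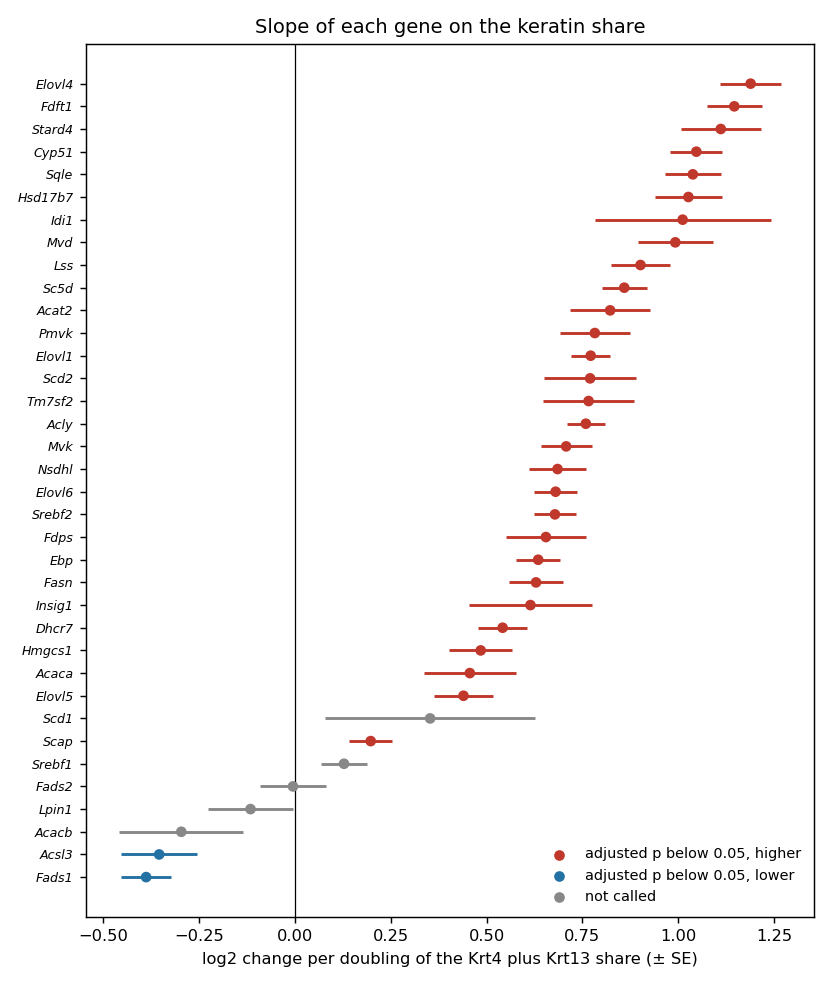
Slope of each of the 36 genes on the Krt4 plus Krt13 share (horizontal axis, log2 change per doubling of the share, bars are 1 SE), with genotype group in the model. Red marks the 29 genes that rose, blue the 2 that fell (Fads1 and Acsl3) and grey the 5 that were not called.

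The relation was also read inside each of the 2 ranges of the share, with Pearson's r and Spearman's rho over 6 libraries and exact permutation p-values, adjusted over 72 relations. Over the 6 libraries from 10.4% to 13.9%, r was above 0 for 31 of 36 genes, with a median of 0.80, against 49.0% of all genes tested and a median of -0.02. Lss (r = 0.95), Cyp51 (r = 0.99) and Acly (r = 0.98) reached an adjusted p of 0.0334 in this exact test, from a raw p of 0.00139, the smallest that 6 libraries allow, with rho = 1 in each (p = 0.00278, adjusted p = 0.0667). Without the 2 libraries farthest from the median share, their r was 0.87, 0.97 and 0.83. The adjusted p of 0.0334 rests on these 3 genes being tied at the smallest raw p. The share of all genes that reach that raw p was not computed. Over the 6 libraries from 4.05% to 6.62%, r was above 0 for 27 of 36 genes, with a median of 0.38, against 50.7% of all genes and a median of 0.01. Of the 36, 16 kept their sign without the 2 outlying libraries, against 29 in the upper range. The share of all genes that kept their sign was not computed. No relation in the lower range passed, and the smallest adjusted p was 0.0727, for Fdps, in the opposite direction (r = -0.95, rho = -0.89, exact permutation). With library totals in place of TMM scaling, no gene passed in either range. Genotypes are mixed within each range, so these values are not adjusted for genotype.

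The genotype comparisons, each tested with edgeR over the same 14134 genes, called few of the 36 genes. Active IKKβ against Control called 0 of 36 (0.955% of all genes called), with 3 at an unadjusted p below 0.05 (13.0% of all genes) and a median log2 change of 0.26. Stat3 loss against Control called 0 (0% of all genes), with 3 at an unadjusted p below 0.05 (7.50%) and a median of -0.35. Combined against Control called 0 (0.884%), with 0 at an unadjusted p below 0.05 (11.5%) and a median of 0.07. Combined against active IKKβ called 0 (0%), with 1 at an unadjusted p below 0.05 (9.88%) and a median of -0.20. Combined against Stat3 loss called 1 gene lower (0.0495% of all genes called lower), with 4 at an unadjusted p below 0.05 (8.96%) and a median of 0.35. The medians over all genes lay between -0.02 and 0.01 in these 5 comparisons. DESeq2 called 0, 2, 0, 0 and 3 of the 36 genes in the same order. Shares of all genes in DESeq2, here and below, are over 18426 genes, without the count filter of edgeR. The 2 in Stat3 loss against Control were Lpin1 higher (0.228% of all genes in DESeq2) and Scd1 lower (0.336%), and the 3 in combined against Stat3 loss were Scd1 higher (1.05%) with Fads2 and Lpin1 lower (0.532%). Without the 3 libraries rich in other tissue, edgeR called 0 in each of the 5. The average effect of the active kinase over both Stat3 backgrounds called 1 gene lower (0.594% of all genes called lower) and 0 higher (2.12%), with a median of 0.32, and the interaction called 0 (0%), with 2 genes at an unadjusted p below 0.05 (4.66%). The summed level of 8 leukocyte markers was 78.1 to 85.8 CPM in active IKKβ and 20.8 to 47.5 CPM in the other groups, and its part in these comparisons was not tested. Comparisons that use the same control libraries are not independent of each other.

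The libraries differ in their keratin share within each genotype, and the medians moved when it was fitted. Active IKKβ had 2 of 3 libraries above 10%, Stat3 loss and Control 1 of 3, and combined 2 of 3. With the log2 share as a covariate, the medians over the 36 genes became 0.05 in active IKKβ, -0.25 in Stat3 loss and -0.05 in combined, each against Control, and those of combined became -0.09 against active IKKβ and 0.14 against Stat3 loss. Single libraries set the sign or the size of the medians without the covariate. Stat3 loss against Control ran from -0.62 without Stat3 loss replicate 3 to 0.14 without Control replicate 3, the library with the largest share, and active IKKβ against Control ran from -0.02 without active IKKβ replicate 2 to 0.63 without Control replicate 3. Combined against Control ran from -0.22 without combined replicate 3 to 0.49 without Control replicate 3, and combined against active IKKβ ran from -0.45 without combined replicate 3 to 0.10 without combined replicate 2, the library with the smallest share, and was 0.04 without active IKKβ replicate 2. Combined against Stat3 loss ran from 0.12 without combined replicate 3 to 0.63 without combined replicate 2. The average effect of Stat3 deletion ran from -0.42 without active IKKβ replicate 1 to -0.01 without Control replicate 3, and that of the active kinase from 0.18 without active IKKβ replicate 2 to 0.51 without Control replicate 3. Without the 3 libraries rich in other tissue, the medians against Control were 0.26 for active IKKβ, which did not move, -0.78 for Stat3 loss and -0.14 for combined. They were -0.44 for combined against active IKKβ and 0.57 for combined against Stat3 loss.

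**Figure D4:**
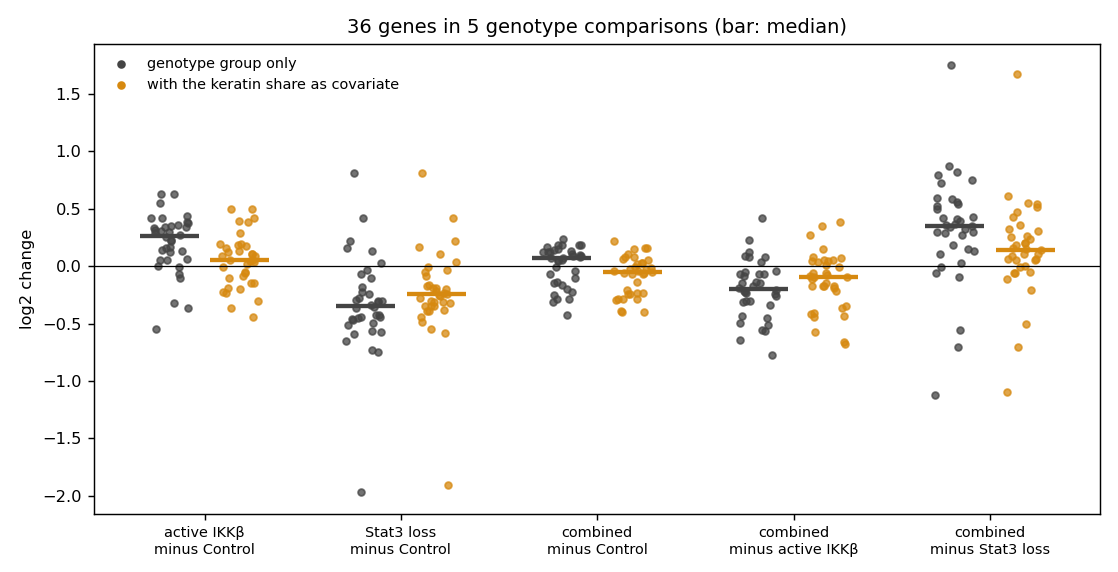
Log2 change of each of the 36 genes in 5 genotype comparisons, with 1 point a gene and a bar at the median, fitted with genotype group alone (dark) or with the log2 keratin share as a covariate (orange). The median moves from 0.26 to 0.05, -0.35 to -0.25, 0.07 to -0.05, -0.20 to -0.09 and 0.35 to 0.14 from left to right, and Scd1 and Lpin1 lie farthest from the others in the comparisons with Stat3 loss.

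Lpin1 (chr12:16535669-16610966, minus strand) was the gene called lower in combined than in Stat3 loss. It was at 9.84, 9.15 and 6.55 CPM in Control, 8.94, 11.7 and 11.7 CPM in active IKKβ, 16.5, 16.5 and 11.999 CPM in Stat3 loss and 6.76, 7.38 and 6.39 CPM in combined. All 3 Stat3 loss libraries were above all Control, active IKKβ and combined libraries, and all 3 combined libraries were below all active IKKβ libraries. Of all genes, 6.96% lay above Control without overlap in Stat3 loss, and 7.54% lay below active IKKβ without overlap in combined. The means were 8.51 ± 1.73 CPM (SD, n = 3) in Control, 10.8 ± 1.58 CPM in active IKKβ, 15.004 ± 2.60 CPM in Stat3 loss and 6.84 ± 0.50 CPM in combined. Combined differed from Stat3 loss by -1.12 ± 0.20 on the log2 scale (edgeR adjusted p = 0.0427). That call was lost without any 1 library other than Control replicate 3 (adjusted p from 0.0502 to 0.21) and ranged from 7.58e-05 to 0.221 over all alternatives. With the keratin share as a covariate, Lpin1 and Fads2 were both called lower (0.531% of all genes). Stat3 loss was 0.81 ± 0.20 above Control (edgeR adjusted p = 0.352), which passed in DESeq2 (adjusted p = 0.0316). Combined differed from active IKKβ by -0.65 ± 0.21 (edgeR adjusted p = 0.418). The interaction, which asks whether the active kinase acts differently with and without Stat3, was -1.46 ± 0.29 with an unadjusted p of 0.00035 (edgeR adjusted p = 1), and in DESeq2 its adjusted p was 0.0133 (0.0271% of all genes called lower).

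Scd1 (chr19:44394455-44407879, minus strand), the stearoyl-CoA desaturase that makes oleate, had the largest fitted changes of the set but did not pass in the edgeR fit. It was at 8.11, 46.3 and 47.02 CPM in Control, 39.3, 40.7 and 37.9 CPM in active IKKβ, 7.08, 8.61 and 10.04 CPM in Stat3 loss and 29.7, 23.3 and 33.97 CPM in combined. Stat3 loss libraries were all low and active IKKβ libraries all high, while Control held 1 low library, replicate 1, and 2 high ones. Combined libraries lay above all Stat3 loss libraries (6.06% of all genes do so without overlap) and below all active IKKβ libraries. Stat3 loss differed from Control by -1.97 ± 0.47 on the log2 scale (edgeR adjusted p = 0.352), and without Control replicate 1 by -2.43 (adjusted p = 0.0012). DESeq2 called the difference with all libraries (adjusted p = 0.0097). Combined differed from Stat3 loss by 1.75 ± 0.47 (edgeR adjusted p = 0.214), from 0.00269 without Control replicate 1 to 0.607 over the alternatives.

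Scd1 is also abundant in adipocytes, and the adipocyte list was uneven among libraries. The summed level of its 10 genes was 16.9, 198 and 50.9 CPM in Control, 50.4, 37.5 and 32.7 CPM in active IKKβ, 16.0, 15.5 and 25.3 CPM in Stat3 loss and 13.6, 23.1 and 12.7 CPM in combined. Control replicate 1, low in Scd1, was also the lowest Control library in this sum, and no gene of the list was at 0 in all libraries. With the mean adipocyte level as a covariate, Scd1 in Stat3 loss against Control was -0.66 (edgeR adjusted p = 0.998). In that fit the average effect of the active kinase on Scd1 was 1.33 (edgeR adjusted p = 0.0224), against 0.98 without the covariate (adjusted p = 0.176). Combined against Stat3 loss stayed at 1.62 to 1.88 in Scd1 over all alternatives, this covariate among them. The part of this list in the Scd1 differences was not tested.

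Fads2 (chr19:10062765-10101746, minus strand), the desaturase of the first step in polyunsaturated chains, was lower with the active kinase when both Stat3 backgrounds were averaged. It was at 48.9, 44.3 and 47.7 CPM in Control, 36.8, 39.8 and 32.5 CPM in active IKKβ, 68.8, 71.6 and 48.2 CPM in Stat3 loss and 36.5, 35.3 and 43.5 CPM in combined. Both groups with the active kinase lay below Control in every library, and combined lay below Stat3 loss in every library (7.85% and 6.87% of all genes lay lower without overlap in these comparisons). The average effect of the active kinase was -0.54 ± 0.11 on the log2 scale (edgeR adjusted p = 0.0259), the call among the 36 genes for this contrast. It stayed called without each of 6 libraries and was lost without Control replicate 1, active IKKβ replicate 3, Stat3 loss replicates 1 and 2 or combined replicates 1 and 2, singly (adjusted p from 0.052 to 0.0809). The parts of this average were -0.37 ± 0.15 with Stat3 intact (edgeR adjusted p = 0.352) and -0.71 ± 0.15 with Stat3 deleted (edgeR adjusted p = 0.105). With the keratin share as a covariate, the average effect was -0.54 (adjusted p = 0.0156, 2.31% of all genes called lower).

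Fads1, the neighbour of Fads2, had a similar fitted change with the active kinase and fell with the keratin share. Its average effect was -0.55 ± 0.17 (edgeR adjusted p = 0.137), and with the share as a covariate it was -0.47 ± 0.08 (adjusted p = 0.00696). DESeq2 called both genes lower without the covariate (1.66% of all genes). In active IKKβ every library was below every Control library in both Fads1 and Fads2, the only 2 genes of the 36 with that order (8.21% of all genes lay lower without overlap). Elovl5, in the same chain of reactions, was 0.53 ± 0.19 higher on average with the active kinase (edgeR adjusted p = 0.211), and 0.43 ± 0.10 with the share as a covariate (adjusted p = 0.024, 3.86% of all genes called higher). With that covariate, Elovl1 was the gene called for the average effect of Stat3 deletion, at -0.29 ± 0.06 (edgeR adjusted p = 0.046), where 1.17% of all genes were called lower. Without the covariate that average called 0 of 36 (0.262% of all genes), with 2 genes at an unadjusted p below 0.05 (12.7% of all genes) and a median of -0.28, and DESeq2 called Scd1 lower (1.17%).

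**Figure D5:**
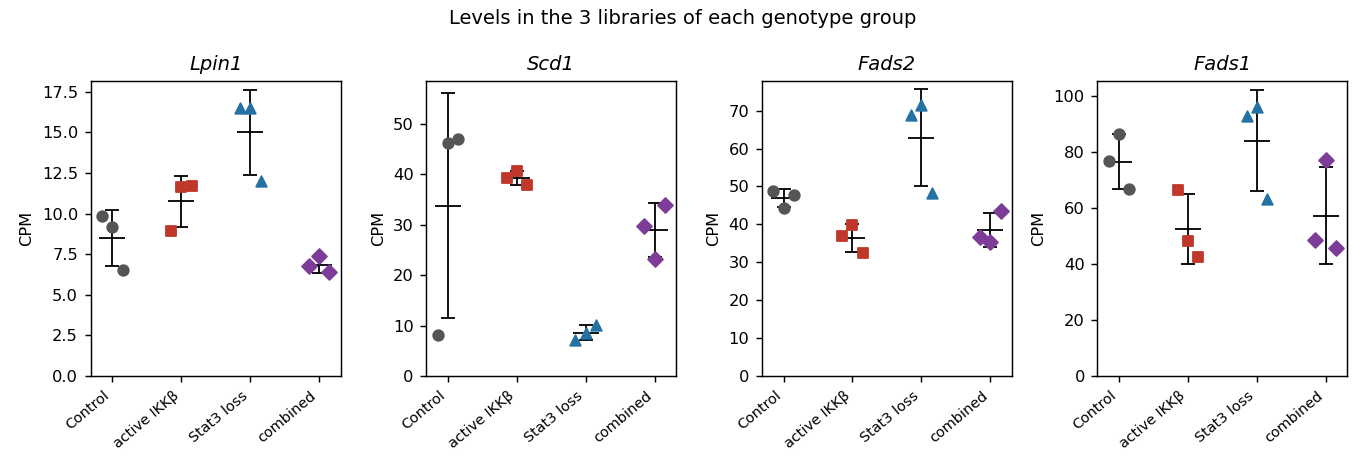
Levels of Lpin1, Scd1, Fads2 and Fads1 (vertical axes, CPM, each from 0) in the 3 libraries of each genotype group, with the mean and 1 SD. Lpin1 is highest in Stat3 loss (11.999 to 16.5 CPM), Scd1 is lowest there (7.08 to 10.04 CPM) with 1 low Control library at 8.11 CPM, and Fads2 is lower in both groups with the active kinase than in Control.

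The other genes of these pathways were counted against the share in the same fit, in which 18.5% of all genes rose and 16.2% fell. Of 11 other sterol genes tested, 6 rose and none fell, among them Aacs (slope 0.77 ± 0.06) and Msmo1 (0.86 ± 0.08). Aacs makes acetoacetyl-CoA from acetoacetate and Msmo1 is a sterol oxidase of the demethylation steps. Of 19 other fatty acid and triglyceride genes, 13 rose and 2 fell, led by Me1 (1.29 ± 0.07), which supplies NADPH, Dgat2 (1.05 ± 0.06), which completes triglyceride, and Acss2 (1.18 ± 0.09), which activates acetate. The 2 that fell were Dgat1 (-0.31 ± 0.07) and Mlxipl (-0.54 ± 0.17), named after their values were seen. Of 16 genes of barrier lipid, 14 rose and none fell, led by Slc27a4 (0.89 ± 0.05), a fatty acid transporter, Sptlc3 (1.27 ± 0.08), a subunit of the first enzyme of sphingolipid synthesis, and Cyp4f39 (1.03 ± 0.06), a fatty acid hydroxylase. Of 14 genes of fatty acid oxidation, 7 rose and none fell, among them Cpt2 (0.51 ± 0.06) and Acadm (0.33 ± 0.04).

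Among 11 genes of sterol efflux, 2 rose and 1 fell with the share, no more than among all genes. Abcg1, a sterol exporter, had a slope of 0.73 ± 0.12, Lpcat3, a phospholipid acyltransferase, 0.23 ± 0.05, and Apoe, a lipoprotein, -0.56 ± 0.06. With genotype, 2 genes of all these lists were called. Abca1, the exporter of cholesterol to lipoprotein, was at 31.1, 21.6 and 19.2 CPM in Control, 24.1, 17.9 and 28.1 CPM in active IKKβ, 68.1, 53.6 and 38.6 CPM in Stat3 loss and 51.8, 50.99 and 43.9 CPM in combined. Every library with Stat3 deleted was above every library with Stat3 intact (0.467% of all genes had that order), and the average effect of Stat3 deletion was 1.11 ± 0.17 (edgeR adjusted p = 0.0329, 0.0637% of all genes called higher). Ppargc1a, a coactivator of oxidative metabolism, was at 0.503, 0.47 and 0.686 CPM in Control, 1.75, 1.55 and 1.76 CPM in active IKKβ, 1.71, 1.45 and 1.58 CPM in Stat3 loss and 1.65, 2.32 and 2.77 CPM in combined. It was low in all 3 Control libraries, and its log2 level relative to them was higher by 1.45 ± 0.31 in active IKKβ (edgeR adjusted p = 0.0409, 0.899% of all genes called higher), by 1.36 ± 0.31 in Stat3 loss (edgeR adjusted p = 0.228, not called) and by 1.84 ± 0.31 in combined (edgeR adjusted p = 0.0152, 0.566% called higher). The 3 groups above Control are those that carry Cre. Its average effect of the active kinase was 0.97 ± 0.22 (edgeR adjusted p = 0.0273). With Stat3 deleted, the combined libraries (1.65 to 2.77 CPM) overlapped those of Stat3 loss (1.45 to 1.71 CPM), and Ppargc1a was not called in that comparison. These calls were not firm. That of Abca1 passed in 11 of 24 alternative fits, where the effect ran from 0.80 to 1.23 and the edgeR or DESeq2 adjusted p from 1.72e-06 to 0.686, and it was lost without any 1 library other than Control replicates 1 and 3 and Stat3 loss replicate 3. The effect was 0.80 with the mean adipocyte level as a covariate. For Ppargc1a, 8 of 25 alternatives kept the call in active IKKβ (1.34 to 1.602), 19 of 25 that in combined (1.67 to 2.02) and 13 of 24 the average effect (0.87 to 1.05). Leaving out Control replicate 1, Control replicate 2, combined replicate 3 or the 3 libraries rich in other tissue, or adding the adipocyte covariate, ended all 3 calls of Ppargc1a.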

How the data were processed

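Gene-level read counts were deposited for 12 RNA-seq libraries. Per the submitters' processing notes, cutadapt 1.13, STAR, HTSeq 0.6.1p1 and DESeq2 were used with mm10, and the roles, annotation and strand setting are not given in the sources used here. The values are whole-number counts as the authors deposited them. From these, edgeR 4.0.16 in R 4.3.3 (limma 3.58.1 installed with it) fitted all 12 libraries in 1 quasi-likelihood model with robust estimation and TMM scaling, after its default count filter. Tests covered 8 genotype contrasts and the slope on the log2 Krt4 plus Krt13 share, with p-values adjusted over 14134 genes and calls at an adjusted p below 0.05. Levels are CPM on TMM-scaled totals, log values use a prior count of 2, and SEs are quasi-likelihood Wald errors. DESeq2 1.42.0, other scalings and filters, covariates and left-out libraries were alternatives, and leaving out the 3 tissue-rich libraries together was chosen after seeing the data. Depth, from 14816468 to 30188363 counts a library, gave Idi1, Acacb and Lpin1 the fewest counts of the set. Replicates of a group differed by more than sampling noise (chi-square per degree of freedom of at least 26.1). Positions and exon lengths are from GENCODE M21, and promoters from RefSeq.

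The genes and lists were chosen with earlier results of these data known, so no list here is independent of them. Of 222 list entries, 220 were found, 8 under an older symbol (Msmo1 is listed as Sc4mol). All 36 genes were accounted for. Values in every library are given for genes called in any comparison, for the 3 with the smallest adjusted p in each comparison, and for Srebf1, Srebf2, Insig1, Hmgcs1, Sqle, Fasn, Acaca, Scd1 and Scd2. Of other pathway lists, up to 3 called genes a comparison are named, by smallest adjusted p. Some genes that this rule names are not reported here.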

Additional observations from a re-analysis of the deposited data

How the results depend on the processing

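The count of genes called for the slope stayed within 27 to 31 of 36 when each library was left out in turn, lowest without combined replicate 2. It stayed within 29 to 32 under the other scalings, filters, tests and covariates tried. The share of all genes called for the slope in each of these fits is not reported here. Library totals turned the slope of Scap to -0.036 and took the number of relations passing within the upper range of the share from 3 to 0. Stat3 loss against Control called 2 genes in DESeq2 (Scd1 and Lpin1) and 0 to 1 with a library left out, where Scd1 was called without Control replicate 1. Combined against Stat3 loss called 0 with library totals, upper quartile factors, the adipocyte covariate or without the 3 tissue-rich libraries, 2 with the keratin share as a covariate, 3 in DESeq2 and 0 to 1 with a library left out. In a fit of only those 2 groups it again called 1, but that gene was Scd1. The interaction called 1 in DESeq2. The average effect of Stat3 deletion called 1 with the keratin covariate, 1 in DESeq2 and 0 to 1 with a library left out. The average effect of the active kinase called 0 with library totals, 3 with the keratin covariate, 2 with the adipocyte covariate, 2 in DESeq2 and 0 to 1 with a library left out. The cause of these changes was not tested.

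Replicate numbers are shared between groups in the labels but nothing ties libraries of 1 number together. Deviations from the group means correlated above 0.1 in 9 of 18 same-numbered pairs (r from -0.41 to 0.45) and in 12 of 36 other pairs, and 8 of 12 libraries correlated best with their own number. With the replicate block, the average effect of the active kinase called 2 genes (Fads1 and Fads2) and the slope called 29, of which 28 rose and 1 fell. Insig1, Acaca and Acsl3 were not called and Srebf1 was called higher. The share of all genes called in the fit with the block is not reported here. Abca1 missed the threshold for the average effect of Stat3 deletion with the block (edgeR adjusted p = 0.0503).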
